A study of Mus musculus with 36 samples.

Results

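The heat shock proteins and DNAJ chaperones of the mouse were taken from the deposited expression table by their symbols: every gene named Dnaja, Dnajb or Dnajc with a number, and every gene whose symbol starts with Hsp, except the proteoglycan gene Hspg2. The rule gave 72 genes of the 24127 in the table, namely 4 Dnaja, 13 Dnajb, 26 Dnajc and 29 Hsp genes. Of these, 59 had a mean of at least 10 normalized counts over all libraries and entered the test, among 11853 genes tested in all. Dnajb8 and Hspb3 had 0 reads, and Dnajb3, Dnajb7, Dnajc6, Dnajc22, Hspa12b, Hspb1, Hspb2, Hspb7, Hspb8, Hspb9 and Hspb11 had reads but too few to be tested. Hspb1, the small heat shock protein that many stressed cells raise, had only 71 reads in the whole series.

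Chaperones bind unfolded or partly folded proteins and keep them from aggregating. HSP70 proteins do so in cycles of ATP hydrolysis that J-domain proteins (the DNAJ families) start and HSP110 proteins and other exchange factors end, while HSP90 acts late on kinases, receptors and other clients. Heat or damaged protein in the cytosol raises the cytosolic members through the transcription factor HSF1, and unfolded protein in the endoplasmic reticulum (ER) raises the ER members through ATF6, IRE1 with XBP1, and PERK.

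The cells were dendritic cells grown from bone marrow of C57BL/6 mice with the growth factor GM-CSF and purified by magnetic selection for CD11c. They were wild type (WT) or Dhx58-/- (LGP2-/-, here KO), lacking by their label the RNA helicase LGP2, and had been transfected with 20 ng of PAMP RNA, an agonist of the RNA sensor RIG-I, or were mock controls. RNA was taken 1, 3 or 6 h later, which gave 12 groups of 3 libraries: WT mock, WT PAMP RNA, KO mock and KO PAMP RNA at each time. All groups share the culture, the selection and the plating; the labels call the controls both mock and untreated, so the transfection itself cannot be told apart from the RNA. Cells were plated in triplicate and separate mice are not stated, so p-values measure only the spread between these libraries.

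The libraries held 4740909 to 14255730 reads in genes. Dhx58 reads were not lower in mock libraries labelled KO. The mean over 3 libraries was 93.6, 132 and 307 normalized counts in WT mock at 1, 3 and 6 h, and 147, 451 and 722 in KO-labelled mock. With PAMP RNA Dhx58 reached 3005 in WT and 935 in the libraries labelled KO at 6 h, so its rise over mock was smaller under that label. The part of the gene deleted is not given, so these counts could not check the label. Directions between genotypes below therefore follow the labels alone. All 12 dendritic cell markers were in the table, with Flt3 low at a mean of 9.26. The summed level of 5 of 6 macrophage markers was 16580 to 16740 in WT mock and 25220 to 25890 in WT PAMP RNA libraries at 6 h (KO label 13770 to 14280 and 24960 to 26880), and its part in the results below was not tested. Neutrophil markers summed to 122 to 264 and T cell markers to 46.2 at most, with Cd3e, Cd3g and Cd3d below 1 on average. Markers of B cells, NK cells, eosinophils, mast cells and red cells each summed to 21.5 or less in every library. The 3 plasmacytoid dendritic cell markers summed to 462 to 580 in WT mock and 3256 to 3836 in WT PAMP RNA libraries at 6 h. Most of this was Bst2, with Siglech at a mean of 0.366 and Ccr9 at 30.6.

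The start regions of a few members show what the symbols hide, namely which of them share a promoter and which carry a stress element. RefSeq windows of GRCm38.p6 were matched for 59 of the 72 members, and the 250 bases before the start were read on both strands. No window was found for Dnajc2, Dnajc5, Dnajc11, Dnajc12, Dnajc18, Dnajc22, Dnajc30, Hsp90aa1, Hsp90ab1, Hspa8, Hspa9, Hspa13 and Hspb2, so these were not searched. The 59 members with a window are not the same set as the 59 tested. Hspa1a and Hspa1b encode the same stress-inducible HSP70 from neighbouring genes, and 247 of these 250 bases are identical between them. Both genes lie on the minus strand, at chr17:34972157-34972406 for the Hspa1a window and chr17:34959239-34959488 for that of Hspa1b, and capitals mark GAANNTTC, a heat shock half-site pair, at 104 to 97 bases before the start:
Hspa1a: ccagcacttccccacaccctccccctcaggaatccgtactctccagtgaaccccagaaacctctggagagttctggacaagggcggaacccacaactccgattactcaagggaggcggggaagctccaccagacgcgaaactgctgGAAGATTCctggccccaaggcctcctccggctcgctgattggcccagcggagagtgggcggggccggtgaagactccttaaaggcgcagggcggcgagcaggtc
Hspa1b: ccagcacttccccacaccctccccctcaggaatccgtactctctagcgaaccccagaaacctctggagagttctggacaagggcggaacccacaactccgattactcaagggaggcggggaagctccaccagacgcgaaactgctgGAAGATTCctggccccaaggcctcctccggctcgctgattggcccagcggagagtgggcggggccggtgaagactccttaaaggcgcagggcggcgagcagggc
A longer heat shock element with 3 half-sites, TTCNNGAA followed after 2 bases by another TTC, was held by 3 of the 59 members with a window (5.08%, against 0.514% of all genes with a window): Dnajb6 and the neighbouring, divergent genes Hspd1 and Hspe1, which share the site. The sites of Dnajb6 (chr5:29735844-29735873, plus strand) and Hspe1 (chr1:55088051-55088080, plus strand) are in capitals, together with any half-site overlapping them:
Dnajb6: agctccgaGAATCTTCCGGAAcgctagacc
Hspe1: acggtccgTTCTAGAACCTTCCGGAAggcc
The ER stress element, CCAAT and CCACG with 9 bases between them, was also held by 3 members (5.08%, against 0.13% of all genes with a window), Hspa5 (chr2:34772020-34772049, plus strand), Hsp90b1 (chr10:86705632-86705661, minus strand) and Dnajc3 (chr14:118937822-118937851, plus strand), in capitals here:
Hspa5: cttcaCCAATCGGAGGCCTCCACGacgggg
Hsp90b1: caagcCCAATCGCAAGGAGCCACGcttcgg
Dnajc3: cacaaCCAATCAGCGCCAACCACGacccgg
The short forms were less selective. TTCNNGAA stood before 10.2% of the members with a window and 8.12% of all such genes, and GAANNTTC in 18.6% and 7.73%. A match describes letters only and is not a measured binding site.

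By level, a few abundant chaperones made up most of the family. Per kilobase of exon and as a mean over all libraries, Hspa8, the constitutive cytosolic HSP70, stood at 3534 normalized counts, Hsp90ab1 (constitutive HSP90) at 3015, Hspa5 (BiP, the HSP70 of the ER) at 2028, Hsp90b1 (GRP94, the HSP90 of the ER) at 1243 and Hsp90aa1 (inducible HSP90) at 924. These 5 genes held 65.5% of the summed normalized counts of all members. On the same scale the most abundant J-domain gene was Dnaja2, a cytosolic HSP70 partner, at 470, and the inducible Hspa1a and Hspa1b were at 37.5 and 45.2.

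Few members responded at 1 h and most had changed by 6 h. Differences are log2 values of PAMP RNA minus mock on the scale log2(normalized count + 1), tested with limma, and a member is called at an adjusted p under 0.05 over all genes. A member that rose or fell in a response was higher or lower than the mock cells of its time, which changed as well. At 1 h only Hspa1a and Hspa1b were called in WT cells, both higher (0.945% of all genes were called, 0.801% higher and 0.143% lower), and the same 2 genes in the libraries labelled KO (1.36%, 1.19% higher and 0.169% lower). At 3 h in WT, 11 members rose and 17 fell, which is 47.5% of those tested beside 41.6% of all genes (19.6% higher, 22.0% lower). At 6 h in WT, 26 rose and 11 fell, which is 62.7% beside 65.4% (32.1% higher, 33.3% lower). In the libraries labelled KO 12 rose and 20 fell at 3 h, which is 54.2% beside 50.6% (23.8% higher, 26.9% lower). At 6 h under that label 24 rose and 15 fell, which is 66.1% beside 71.7% (35.1% higher, 36.5% lower). The share of members called was thus near that of all genes. The median member changed by -0.06 at 3 h and 0.16 at 6 h in WT (all genes -0.03 and -0.02), and by -0.11 and 0.05 under the KO label (all genes -0.03 at both times).

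**Figure D1:**
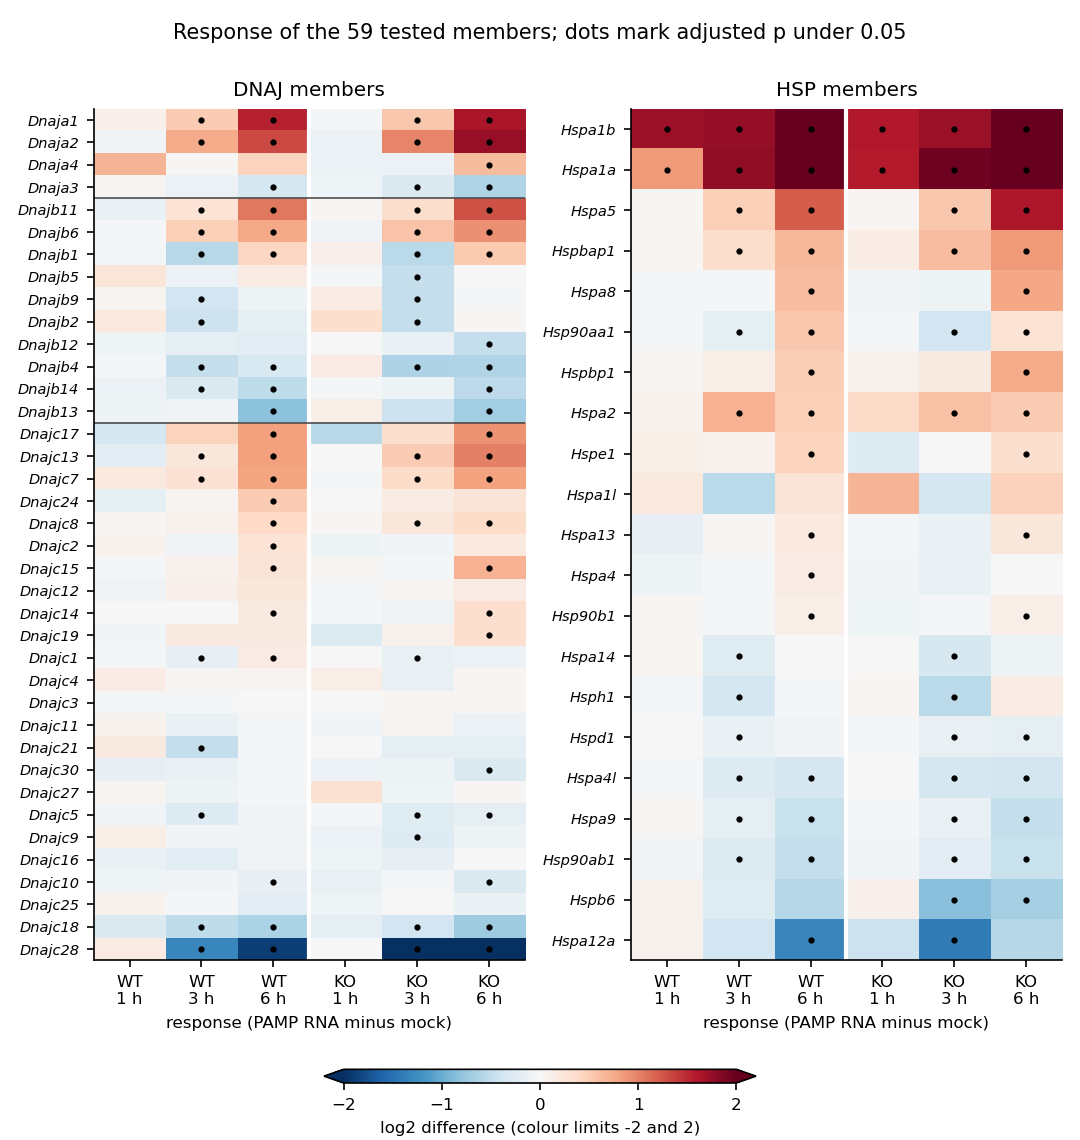
Log2 difference of PAMP RNA minus mock for the 59 tested members (rows) in the 6 comparisons of genotype and time (columns), coloured from -2 to 2, with a dot where the adjusted p was under 0.05. The 1 h columns hold dots only at Hspa1a and Hspa1b, and rises of the 6 h columns that turn under another scaling, such as those of Hsp90b1 and Hspa8, are shown here as deposited.

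The direction of the smaller changes depends on how the libraries are scaled. The deposited size factors left the summed normalized counts of a library at 7359444 to 7462243 in WT mock and 9511224 to 9708651 in WT PAMP RNA cells at 6 h, so that scaling every library to the same total moved the median of all genes to -0.39 (WT) and -0.51 (KO label) at 6 h, and to -0.20 and -0.28 at 3 h. With equal totals 12 members rose and 32 fell in WT at 6 h, and with quantile normalization 22 rose and 17 fell. For WT at 3 h these counts were 7 and 32 with equal totals and 9 and 23 with quantile normalization. For the KO label they were 13 and 38, and 21 and 20, at 6 h, and 8 and 40, and 10 and 27, at 3 h. Of the 26 members that rose in WT at 6 h, 10 were called higher under all 4 scalings tried: Dnaja1, Dnaja2, Dnajb6, Dnajb11, Dnajc7, Dnajc13, Hspa1a, Hspa1b, Hspa5 and Hspbap1. All 11 that fell were called lower under all 4. At 3 h in WT all 17 falls were called under all 4, but only 7 of the 11 rises, those of Dnajb11, Dnajc7, Dnajc13 and Hspbap1 being lost. Quantile normalization and equal totals moved the WT median of all genes down, to -0.10 and -0.20 at 3 h and -0.10 and -0.39 at 6 h. A fall called as deposited was therefore likely to stay called, and this check says little about the falls. For the KO label 8 of the 12 rises at 3 h were called under all 4.

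**Figure D2:**
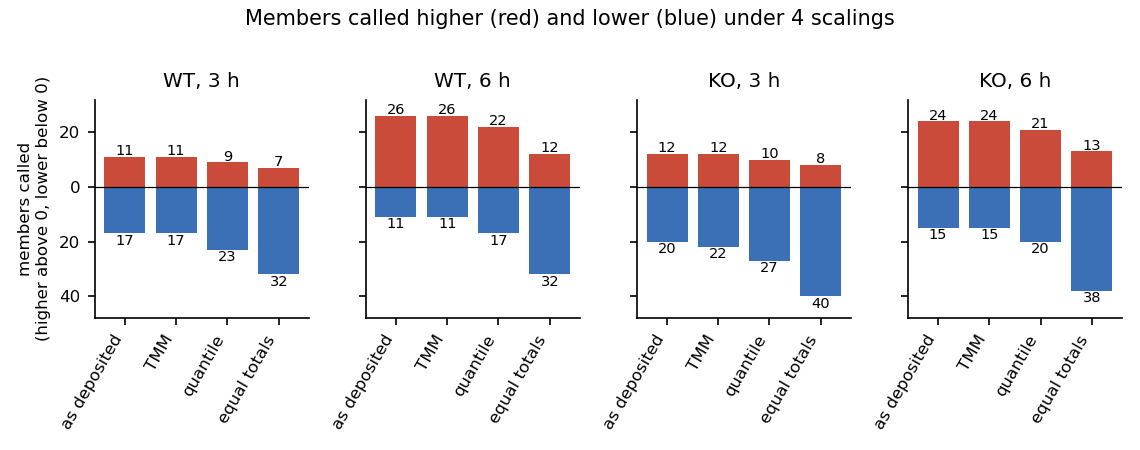
Number of the 59 tested members called higher and lower (bars) in the 3 h and 6 h responses under the deposited scaling, TMM, quantile normalization and equal total reads. In WT at 6 h the split is 26 and 11 as deposited, and 12 and 32 with equal totals.

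The inducible HSP70 genes gave the earliest and largest rise of the family. Hspa1a held 25.1, 21.2 and 33.8 normalized counts in the WT mock libraries at 1 h and 49.8, 45.5 and 48.5 with PAMP RNA. At 6 h its WT mock libraries were at 61.2, 38.2 and 54.8 and the PAMP RNA libraries at 327, 242 and 309. No PAMP RNA library overlapped the mock libraries of its time and genotype. The rise of Hspa1a was 0.85 (SE 0.18, adjusted p = 0.00467) at 1 h, 1.77 (SE 0.18, adjusted p = 1.3e-11) at 3 h and 2.50 (SE 0.18, adjusted p = 8.5e-17) at 6 h in WT, the last being 5.66-fold on the log2(count + 1) scale. The call at 1 h was lost without WT mock replicate 2 (0.70, adjusted p = 0.086) and when only the groups compared were fitted (adjusted p = 0.0799).

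Hspa1b was at 7.17, 13.5 and 18.8 in WT mock and 37.6, 49.9 and 40.9 in WT PAMP RNA libraries at 1 h, and at 64.6, 63.4 and 54.8 against 417, 308 and 414 at 6 h. Its groups did not overlap either. The rise of Hspa1b was 1.71, 1.76 and 2.61 at 1, 3 and 6 h in WT (SE 0.19 each, adjusted p = 8.2e-09, 1.2e-10 and 2.4e-16). Under the KO label Hspa1b rose by 1.60, 1.72 and 2.92, and Hspa1a by 1.59, 1.94 and 2.96, at 1, 3 and 6 h. Because these 2 genes are near-identical copies, reads may have been divided between them arbitrarily, and 19% of the exon bases of Hspa1a are also covered by another gene, which these unstranded libraries do not separate. Their sum is free of the first limit: it was 112 ± 12.4 in WT mock and 673 ± 107 in WT PAMP RNA libraries at 6 h, and 105 ± 13.9 and 819 ± 121 in those labelled KO (SD, n = 3 each).

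Of the other HSP70 genes with low counts, Hspa2, a testis-rich HSP70 found at low level elsewhere, rose by 0.69 at 3 h and 0.47 at 6 h in WT and by 0.59 and 0.51 under the KO label, the 6 h rises and the 3 h rise under the KO label (0.35) no longer being called with equal totals. Hspa1l, another gene of the same cluster with 71.9% of its exon bases shared with another gene, was not called in any response. Of the 10 HSP70 genes tested, 4 rose and 2 fell at 3 h and 6 rose and 2 fell at 6 h in WT. Beside them, 19.6% of all genes were higher and 22.0% lower at 3 h, and 32.1% and 33.3% at 6 h.

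A list of 12 tested genes was drawn up as heat-inducible. It holds Hspa1a, Hspa1b, Hsph1, Hsp90aa1, Dnajb1, Dnaja1, Dnajb4, Hspa4l, Hspd1 and Hspe1, and also the constitutive Hspa8 and Hsp90ab1. In WT 3 rose and 7 fell at 3 h (19.6% and 22.0% of all genes), and 7 rose and 3 fell at 6 h (32.1% and 33.3%). Hsp90ab1 was among the falls at both times and Hspa8 among the rises at 6 h. The median of the list was -0.17 and then 0.44, beside -0.03 and -0.02 for all genes. Under the KO label 3 rose and 7 fell at 3 h, and 7 rose and 4 fell at 6 h, with medians of -0.19 and 0.30. Beside this, 23.8% of all genes were higher and 26.9% lower at 3 h, and 35.1% and 36.5% at 6 h. The 6 h rises of Dnajb1, Hspa8 and Hsp90aa1 shrank or turned under another scaling, as given with each gene.

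Dnajb1 (HSP40), the J-domain partner of inducible HSP70 and itself raised by heat, was called lower at 3 h and higher at 6 h. In WT at 3 h it stood at 594, 587 and 575 in mock and 415, 409 and 374 in PAMP RNA libraries, and at 6 h at 454, 544 and 578 against 699, 695 and 706. The PAMP RNA libraries were thus all below mock at 3 h and all above it at 6 h. Dnajb1 fell by 0.55 (SE 0.07, adjusted p = 1.8e-08) and then was higher by 0.42 (SE 0.07, adjusted p = 2.7e-06), and under the KO label it changed by -0.54 and 0.52. With equal totals its 6 h difference was 0.05 in WT and 0.03 under the KO label and was not called.

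Hsp90aa1, the inducible cytosolic HSP90, had mock values of 3778, 4681 and 4473 and PAMP RNA values of 3865, 3694 and 3645 at 3 h in WT, which overlap. At 6 h its values were 2626, 3528 and 3573 in mock and 4941, 4622 and 4482 in PAMP RNA libraries, which do not. The changes of Hsp90aa1 were -0.20 (SE 0.07, adjusted p = 0.0171) and 0.54 (SE 0.07, adjusted p = 3.2e-09). The first was lost when WT mock replicate 2 or 3 or WT PAMP RNA replicate 3 of that time was left out, and the second shrank to 0.04 with quantile normalization. Under the KO label Hsp90aa1 fell by 0.38 at 3 h and was 0.28 higher at 6 h, the latter reading -0.37 with quantile normalization.

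Hsp90ab1, the constitutive HSP90, went the other way at 6 h. Its WT mock libraries were at 11100, 11830 and 11810 and its PAMP RNA libraries at 7907, 8884 and 8096, with no overlap. Hsp90ab1 fell by 0.27 at 3 h and by 0.48 (SE 0.05, adjusted p = 4.0e-12) at 6 h in WT, and by 0.22 and 0.45 under the KO label. These falls were called under all 4 scalings, a check that says little about falls because the other scalings mostly lower the values. The paralogous cytosolic HSP90 genes thus differed in direction at 6 h as deposited.

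Hspa8 differed by -0.03 in WT and -0.11 under the KO label at 3 h, neither called, and was higher at 6 h. Its 6 h values were 15870, 16140 and 15460 in WT mock and 23620, 23970 and 24990 in WT PAMP RNA libraries. The difference was 0.61 (SE 0.05, adjusted p = 1.1e-15) in WT and 0.78 under the KO label, was 0.24 in WT with equal totals, and turned to -0.16 and -0.15 with quantile normalization. Hsph1 (HSP105), an HSP110 exchange factor that responds to heat, stood at 311, 327 and 324 in WT mock and 237, 257 and 259 in WT PAMP RNA libraries at 3 h, and these did not overlap. Hsph1 fell by 0.35 (adjusted p = 0.00087) in WT and by 0.54 (adjusted p = 9.6e-07) under the KO label at 3 h. At 6 h the differences of Hsph1 were -0.04 and 0.14, neither called. Hspa4l, another HSP110 gene, fell at both times (-0.25 and -0.33 in WT, -0.35 and -0.37 under the KO label).

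**Figure D3:**
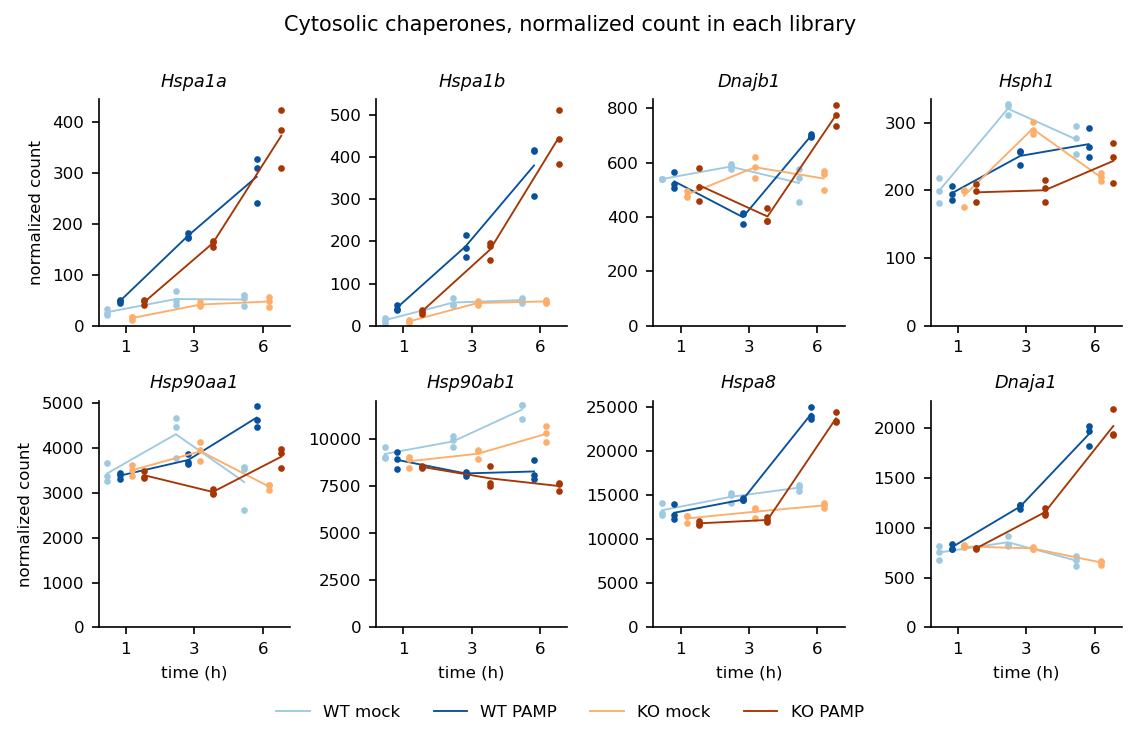
Normalized counts of 8 cytosolic members in each library (dots) at 1, 3 and 6 h, with lines joining the group means of WT and KO-labelled mock and PAMP RNA cells. Hspa1a and Hspa1b separate from mock at every time, Dnajb1 lies below mock at 3 h and above it at 6 h as deposited, and Hsp90ab1 lies below mock at 6 h.

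Among the DNAJA and DNAJB partners of HSP70, the rises at 6 h were largest in Dnaja1 and Dnaja2, which help HSP70 fold newly made proteins and import them into mitochondria. Dnaja1 held 828, 821 and 916 normalized counts in WT mock and 1228, 1184 and 1228 in WT PAMP RNA libraries at 3 h, and 612, 716 and 681 against 1969, 1826 and 2019 at 6 h. The groups lay apart at both times. Dnaja1 rose by 0.51 (adjusted p = 6.7e-10) and 1.53 (SE 0.06, adjusted p = 5.3e-27) in WT and by 0.54 and 1.63 under the KO label. Of its exon bases, 11.8% are shared with a neighbouring gene.

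Dnaja2 held 835, 943 and 914 in WT mock and 2383, 2007 and 2307 in WT PAMP RNA libraries at 6 h. It rose by 0.75 and 1.31 at 3 and 6 h in WT and by 0.98 and 1.75 under the KO label. Dnajb6, which keeps polyglutamine and other aggregation-prone proteins soluble and whose promoter holds the 3-half-site element shown above, was at 1054, 1027 and 1041 in WT mock and 1796, 1672 and 1802 in WT PAMP RNA libraries at 6 h. Dnajb6 rose by 0.47 and 0.75 in WT and 0.57 and 0.92 under the KO label, with no overlap. The other genes with that element read 0.45 (Hspe1, called) and -0.06 (Hspd1, not called) in WT at 6 h.

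In the DNAJB family as a whole, 2 of 10 tested genes rose and 5 fell at 3 h, and 3 rose and 3 fell at 6 h in WT. The shares of all genes were 19.6% higher and 22.0% lower at 3 h, and 32.1% and 33.3% at 6 h. Dnajb4, a close relative of Dnajb1 that is also heat-inducible, was lower than mock by 0.48 and 0.31 in WT at 3 and 6 h. Under the KO label it was lower by 0.61 and 0.60. Its WT mock libraries held 147, 136 and 164 at 1 h and 211, 212 and 206 at 3 h. This mock rise was called in both genotypes. The WT PAMP RNA libraries of Dnajb4 held 154, 145 and 142 at 1 h and 148, 143 and 158 at 3 h. Dnajb14, an ER membrane J-protein, fell by 0.29 at 3 h and 0.50 at 6 h in WT. Dnajb13, a gene of cilia and sperm flagella with few counts and 11.8% of its exon bases shared, fell by 0.83 at 6 h in WT and by 0.70 under the KO label. Hspbap1, named for its association with the small heat shock protein HSPB1, rose by 0.36 and 0.66 in WT and 0.61 and 0.85 under the KO label. The 3 h rise in WT was 0.18 with equal totals and was not called.

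In the ER, Hspa5 and its J-domain partner Dnajb11 rose while the rest did so weakly or not at all. Hspa5 stood at 7708, 8121 and 7720 in WT mock and 10900, 10840 and 10950 in WT PAMP RNA libraries at 3 h, and at 4976, 5007 and 4881 against 11410, 11280 and 11800 at 6 h. The PAMP RNA libraries lay above mock at both times, and the mock level itself was lower at 6 h than at 3 h. Hspa5 rose by 0.47 (SE 0.05, adjusted p = 3.3e-12) and 1.21 (SE 0.05, adjusted p = 2.3e-27) in WT and by 0.54 and 1.62 under the KO label. At 6 h the KO-labelled mock libraries held 4477, 4438 and 4619 and the PAMP RNA libraries 13810, 14010 and 13650.

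Dnajb11 (ERdj3) held 604, 610 and 571 in WT mock and 1259, 1150 and 1304 in WT PAMP RNA libraries at 6 h. It rose by 1.05 (SE 0.05, adjusted p = 8.0e-23) in WT and 1.27 under the KO label. Its rises at 3 h, 0.27 and 0.35, were not called with quantile normalization or equal totals. Dnajb9 (ERdj4), a BiP partner and a common marker of IRE1 and XBP1 activity, instead fell at 3 h, from 362, 414 and 348 in mock to 264, 289 and 310 in PAMP RNA libraries of WT. The fall of Dnajb9 was 0.38 (adjusted p = 7.2e-05) in WT and 0.47 under the KO label, and at 6 h its differences of -0.10 and -0.02 were not called.

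The genes that share the ER stress element with Hspa5 did not share its size of change. Hsp90b1 was at 4068, 4480 and 4361 in WT mock and 4617, 4891 and 4663 in WT PAMP RNA libraries at 6 h. Its difference of 0.14 (adjusted p = 0.017, with 21.6% of its exon bases shared with another gene) turned to -0.41 with quantile normalization and -0.24 with equal totals. Dnajc3 (P58IPK), an ER J-protein and inhibitor of eIF2alpha kinases, was at 773, 774 and 766 in mock and 772, 740 and 791 in PAMP RNA libraries of WT at 6 h, which overlap. Its WT differences were -0.04 at 3 h and -0.01 at 6 h, and it was not called in any of the 6 responses. Hspa13, an HSP70-like protein of microsomes, was 0.20 higher in WT and 0.23 higher under the KO label at 6 h and turned lower with equal totals. Of the 12 ER genes, 2 rose and 3 fell at 3 h, and 5 rose and 2 fell at 6 h in WT, with medians of -0.04 at both times. The shares of all genes were 19.6% higher and 22.0% lower at 3 h, and 32.1% and 33.3% at 6 h.

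In mitochondria, the matrix HSP70 fell and the chaperonin pair parted as deposited. Hspa9 (mortalin) stood at 932, 1032 and 1047 in WT mock and 682, 748 and 779 in WT PAMP RNA libraries at 6 h, without overlap. Hspa9 fell by 0.19 at 3 h and 0.45 (SE 0.06, adjusted p = 9.4e-09) at 6 h in WT, and by 0.14 and 0.48 under the KO label. Hspd1 (HSP60) fell by 0.14 at 3 h in WT and was not called at 6 h, and under the KO label it was called lower at both times. Hspe1 (HSP10), its partner from the shared promoter, was 0.45 higher than mock at 6 h in WT and 0.32 higher under the KO label. Its WT mock libraries held 482, 557 and 529 at 3 h and 361, 385 and 364 at 6 h. This mock fall was called in both genotypes under all 4 scalings. The WT PAMP RNA libraries of Hspe1 held 564, 537 and 543 at 3 h and 520, 502 and 497 at 6 h. With equal totals the 6 h value of Hspe1 was 0.08 in WT and -0.16 under the KO label. Dnaja3 (TID1), a matrix J-protein, fell by 0.35 at 6 h in WT and by 0.29 and 0.61 at 3 and 6 h under the KO label.

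The steepest fall of any member was that of Dnajc28, a little studied J-protein assigned to mitochondria. It held 79.2, 76.2 and 73.4 normalized counts in WT mock and 29.9, 32.9 and 28.6 in WT PAMP RNA libraries at 3 h, and 87.2, 74.6 and 99.6 against 24.8, 21.3 and 22.0 at 6 h. No PAMP RNA library reached a mock library. Dnajc28 fell by 1.30 (SE 0.17, adjusted p = 1.4e-08) and 1.89 (SE 0.17, adjusted p = 1.9e-13) in WT, and by 2.00 and 2.16 under the KO label. Of the 10 mitochondrial genes, 3 fell and 0 rose at 3 h, and 3 fell and 2 rose at 6 h in WT. Beside them, 22.0% of all genes were lower and 19.6% higher at 3 h, and 33.3% and 32.1% at 6 h.

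**Figure D4:**
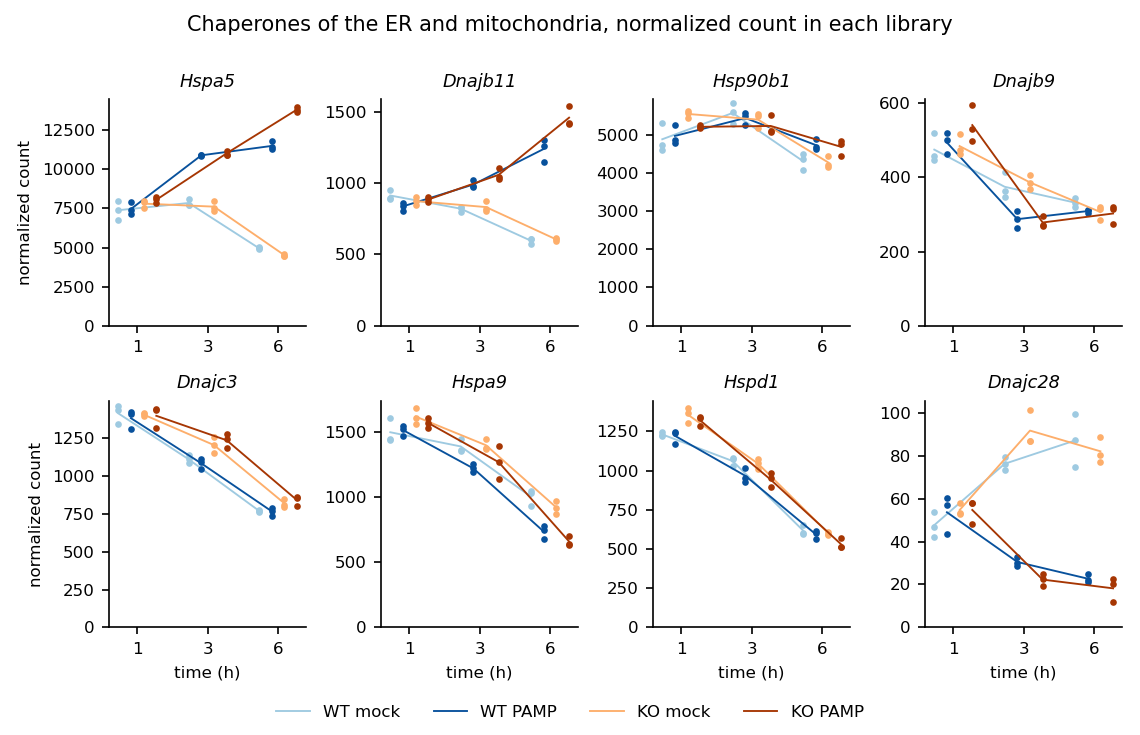
Normalized counts of 8 members of the ER and mitochondria in each library (dots) at 1, 3 and 6 h, with lines joining group means. Hspa5 and Dnajb11 lie above mock at 6 h, Dnajc28 and Hspa9 below it, Dnajc3 overlaps mock, and mock levels of Hspa5, Dnajc3, Hspd1 and Hspa9 are lower at 6 h than at 3 h.

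The DNAJC genes are J-proteins that hold the J domain in otherwise varied structures, many of them tied to a particular place or machine. Of 24 tested, 2 rose and 5 fell at 3 h, and 9 rose and 3 fell at 6 h in WT. The shares of all genes were 19.6% higher and 22.0% lower at 3 h, and 32.1% and 33.3% at 6 h. Dnajc13 (RME-8), which works with HSC70 on endosomes to uncoat clathrin, rose by 0.23 and 0.82 in WT, the 3 h rise being 0.11 with quantile normalization and 0.05 with equal totals and called with neither. Dnajc7 (TPR2), a J-protein that passes clients between HSP70 and HSP90, was at 370, 386 and 420 in WT mock and 679, 689 and 658 in WT PAMP RNA libraries at 6 h and rose by 0.29 and 0.78, with 12.3% of its exon bases shared with a neighbour. With equal totals its 3 h value was 0.11 and was not called. Dnajc5, the cysteine string protein of secretory vesicles, fell by 0.26 at 3 h and was not called at 6 h in WT (-0.06). Dnajc18 fell by 0.50 and 0.64. Of 7 J-domain and HSP70-like genes of ribosomes, splicing and translation, 0 rose and 2 fell at 3 h, and 4 rose and 0 fell at 6 h in WT, beside 32.1% of all genes higher and 33.3% lower at 6 h. None of these 4 (Dnajc2, Dnajc8, Dnajc17 and Dnajc24) was called higher under all 4 scalings, and Dnajc2 turned from 0.28 to -0.10 with equal totals. In the libraries labelled KO 2 of the 7 rose at 6 h.

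Over time, no member that rose at 3 h failed to be called higher at 6 h. In WT 11 were called higher at both times, 12 at 6 h but not at 3 h, 7 lower at both and 7 lower at 3 h but not at 6 h. Dnajb1, Dnajc1 and Hsp90aa1 were called lower at 3 h and higher at 6 h as deposited, but none of these 3 rises was called under all 4 scalings, and that of Dnajc1 turned to -0.22 with equal totals. Under the KO label 12 were called higher at both, 10 at 6 h but not at 3 h, 10 lower at both, and Dnajb1 and Hsp90aa1 lower and then higher as deposited, the latter turning with quantile normalization and equal totals at 6 h. Whether the 6 h response differed from the 3 h response was not tested, and these time patterns were not counted over all genes.

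The mock cells changed as well, mostly downwards after 3 h. These steps use the same mock libraries as the responses, so they are given beside them and not compared. From 1 to 3 h 15 members rose and 10 fell in WT mock cells (43.5% of all genes were called, 21.3% higher and 22.2% lower), and 10 rose and 10 fell under the KO label (42.9%, 21.0% higher and 21.8% lower). Hspa1b rose by 2.06 and 2.29, Hspa1a by 0.94 and 1.43, and Hsph1 by 0.68 and 0.60, in WT and KO-labelled mock cells. From 3 to 6 h only 4 rose and 19 fell in WT mock cells, beside 43.7% of all genes called (22.0% higher, 21.7% lower). Under the KO label 5 rose and 22 fell, beside 43.3% of all genes (21.9% higher, 21.4% lower). The median member changed by -0.14 in WT and -0.11 under the KO label in that step, and the median of all genes by 0.00 in both.

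Every 3 to 6 h fall was called under all 4 scalings, but equal totals moved the median of all genes in this step to -0.06 in both genotypes, which favours falls. The falls of mock cells took in ER and mitochondrial members and also Dnajc9, a histone chaperone of replicating chromatin. Dnajc9 went from 288, 290 and 287 to 141, 150 and 153 in WT mock cells, a fall of 0.96 (SE 0.08, adjusted p = 3.8e-13). Hspd1 fell by 0.78 and 0.80, Hspa5 by 0.66 and 0.75, Dnajc3 by 0.53 and 0.55 and Hspa9 by 0.47 and 0.60, in WT and KO-labelled mock cells. The WT mock level of Hspa5 was 7850 ± 235 at 3 h and 4955 ± 65.9 at 6 h (SD, n = 3 each). The step between the PAMP RNA groups of these times was not tested. Hsp90ab1 rose in this step by 0.23 in WT and by 0.16 under the KO label, which with quantile normalization read 0.03, not called, and -0.07.

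Most calls were made in both genotypes. Of the members called higher at 6 h, 22 were called in both, which is 84.6% of the WT and 91.7% of the KO-label calls, and of those called lower 10, which is 90.9% and 66.7%. At 3 h the shared calls were 11 higher (100% and 91.7%) and 15 lower (88.2% and 75%). No member was called in opposite directions at the same time. These calls rest on separate libraries. The same overlap was not counted over all genes, of which 41.6% (WT) and 50.6% (KO label) were called at 3 h. At 6 h these shares were 65.4% and 71.7%, so the sharing cannot be read as particular to the members.

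The difference between the responses was itself called for 0 members at 1 h (0.118% of all genes). It was called for 1 member at 3 h, higher under the KO label (3.14% of all genes, 2.58% higher and 0.557% lower), and for 4 at 6 h, 3 higher and 1 lower (10.5% of all genes, 6.67% higher and 3.81% lower). With equal totals 2 were higher and 7 lower at 6 h (380 and 1250 of all genes). With quantile normalization 3 were higher and 3 lower at 6 h (381 and 516 of all genes). At 1 h, 6 members had an unadjusted p under 0.05 with limma and 5 each with edgeR and DESeq2, and none was called by any of them. At 6 h the rise of Hspa5 was larger under the KO label by 0.40 (SE 0.07, adjusted p = 2.7e-05) and that of Dnaja2 by 0.43 (SE 0.08, adjusted p = 0.000171). The PAMP RNA libraries of Dnaja2 labelled KO, at 2896, 2673 and 2830, all lay above those of WT, while the mock libraries of the genotypes overlapped. For Hspa5 the PAMP RNA libraries labelled KO also lay above those of WT. Its mock libraries labelled KO, at 4477, 4438 and 4619, all lay below those of WT, at 4976, 5007 and 4881. Both differences were called under all 4 scalings.

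Dnajc15, a mitochondrial J-protein of the import motor, differed by 0.45 (SE 0.14, adjusted p = 0.0328) at 6 h, from a difference of 0.26 in WT, which turned to -0.11 with equal totals, and 0.70 under the KO label. Its PAMP RNA libraries overlapped between genotypes (217, 181 and 230 against 206, 190 and 232), and its mock libraries did not (164, 188 and 171 against 123, 139 and 123). Dnajc1 (ERdj1), a J-protein of the ER membrane that binds ribosomes, differed by -0.27 (SE 0.09, adjusted p = 0.0358), from 0.16 in WT, -0.22 with equal totals, to -0.12 under the KO label. Dnajc13 differed at 3 h by 0.29 (SE 0.08, adjusted p = 0.0431), its PAMP RNA libraries standing at 694, 721 and 661 in WT and 835, 800 and 892 under the KO label. Each of these last 3 differences was lost under several alternatives. That of Dnajc1 was called under all 4 scalings, but equal totals moved the median of all genes for the 6 h difference to -0.09, which favours lower values.

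**Figure D5:**
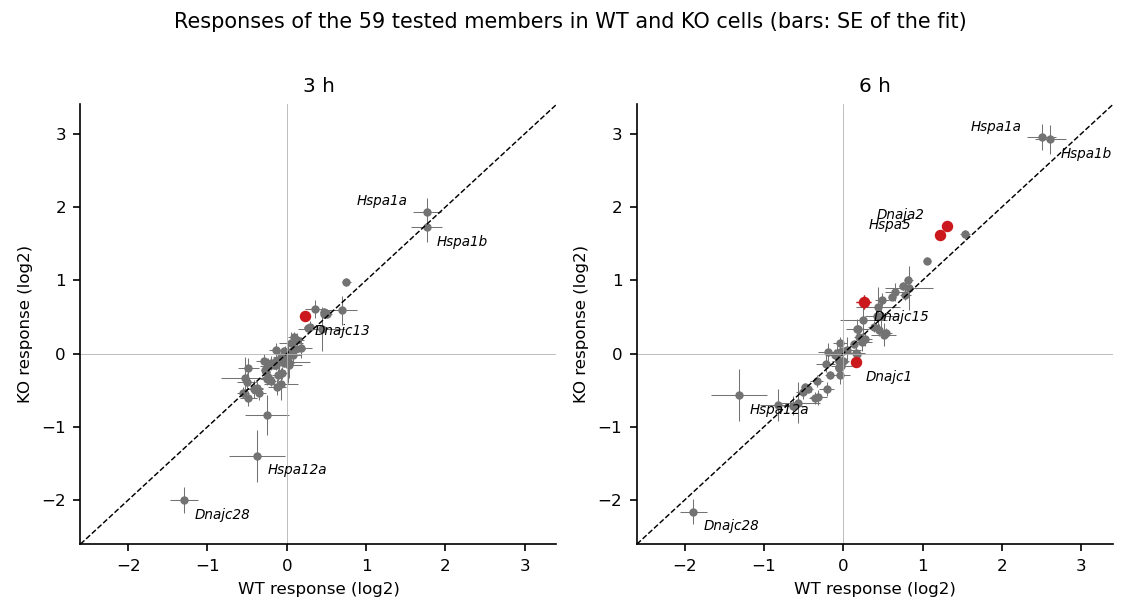
Log2 response to PAMP RNA of each tested member in WT (x axis) against that in the libraries labelled KO (y axis) at 3 h and 6 h, with bars of 1 SE and a dashed line of equality. Red points mark members whose difference between the responses was called, which are Dnajc13 at 3 h and Hspa5, Dnaja2, Dnajc15 and Dnajc1 at 6 h.

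In mock cells, averaged over the times, 8 members were lower in the libraries labelled KO and 0 were higher, beside 22.2% of all genes called (11.7% lower, 10.5% higher). With quantile normalization, with edgeR and with only the groups compared, 2 members were called higher. The 8 were Hspa1a (-0.40, adjusted p = 0.00358), Dnajc12 (-0.38, adjusted p = 4.9e-05), Dnajb2 (-0.34, adjusted p = 0.000235), Hsph1 (-0.17), Hspa8 (-0.16), Dnajc15 (-0.15), Hsp90ab1 (-0.11) and Dnajb6 (-0.10). Hspa1b, the near-identical copy of Hspa1a, was not called. The summed mock level of these 2 copies was 39.85 in WT and 25.45 under the KO label at 1 h. It was 107 and 95.7 at 3 h, and 112 and 105 at 6 h. Dnajc12, a J-protein that handles aromatic amino acid hydroxylases, held 113, 123 and 113 in WT and 80.8, 73.7 and 87.7 in KO-labelled mock libraries at 3 h, without overlap. The differences of Dnajb2, Dnajb6, Dnajc12, Hspa1a, Hspa8 and Hsph1 were called under all 4 scalings. In bulk RNA fewer cells of a type and less RNA per cell cannot be told apart. The summed dendritic cell markers were also lower under the KO label, for example 53880 to 56490 against 72520 to 76620 in mock libraries at 1 h, and their part in these differences was not tested.

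Partners of these chaperones outside the family both rose and fell. Of 26 tested genes of the HSF1 network and of co-chaperones, 3 rose and 6 fell at 3 h and 13 rose and 8 fell at 6 h in WT, with medians of -0.05 and 0.06. Of all genes, 41.6% were called at 3 h and 65.4% at 6 h. Cacybp rose by 0.55 and 1.72 and Bag1, an HSP70 exchange factor, by 0.23 and 0.67. The 3 h rise of Bag1 was 0.09 with quantile normalization and 0.05 with equal totals and was called with neither, and its 6 h rise was 0.39 and 0.30. Hsf1 itself was -0.19 at 3 h, not called, and fell by 0.39 at 6 h. Bag3, an exchange factor raised by HSF1, was -0.12 at 3 h, not called, and rose by 0.49 at 6 h, a call lost with equal totals (0.11).

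Of 23 tested genes of ER folding and the unfolded protein response, 5 rose and 4 fell at 3 h and 12 rose and 6 fell at 6 h in WT, with medians of -0.06 and 0.13. Beside them, 19.6% of all genes were higher and 22.0% lower at 3 h, and 32.1% and 33.3% at 6 h. The ER-stress genes Manf (0.88), Creld2 (0.75) and Sdf2l1 (0.61) were higher than mock at 6 h. Their WT mock libraries were all lower at 6 h than at 3 h. Manf held 693, 765 and 736 in WT mock libraries at 3 h and 393, 349 and 393 at 6 h. With PAMP RNA it held 824, 847 and 840 at 3 h and 717, 684 and 691 at 6 h. Ern1, which encodes IRE1, was lower than mock by 0.97 and Herpud1, a gene of ER-associated degradation, by 0.34. Each of these differences kept its direction under all 4 scalings in WT. Xbp1 was 0.13 higher and turned to -0.27 with quantile normalization. Of 14 genes of the CCT chaperonin and prefoldin, 3 rose and 0 fell at 3 h and 6 rose and 3 fell at 6 h, led by Cct3 (0.59 and 1.07), beside 32.1% of all genes higher and 33.3% lower at 6 h. Of 7 mitochondrial co-chaperones and proteases, 4 fell at 6 h, among them the protease gene Lonp1 (-0.47 at 3 h and -0.70 at 6 h), and 1 rose, the exchange factor gene Grpel1 (0.23), which turned to -0.14 with equal totals. These genes were named after their values were seen.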

How the data were processed

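The authors deposited a signal for each gene: per the labels and the submitters' processing notes, the authors used TopHat, Cufflinks and DESeq2 with GRCm38 (mm10) and deposited DESeq-normalized counts, read counts divided by a size factor per library. Their versions and roles: not given in the sources used here. In every library 100% of values were whole multiples of a step (tolerance 0.01 read), from which reads were recovered. No libraries were identical, and the lowest Pearson correlation within a group was 0.989 (log2 scale). The kits, SMARTer and Nextera XT, do not mark strand.

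The 36 libraries were fitted on log2(normalized count + 1), which understates changes of low genes, with limma 3.58.1 (R 4.3.3, mean-variance trend, 12 group means, 24 residual degrees of freedom) over the 11853 genes with a mean of at least 10. Tests were two-sided, with Benjamini-Hochberg adjustment across these genes. The script was tested on simulated data. Alternatives were other pseudocounts, filters and scalings, edgeR 4.0.16 and DESeq2 1.42.0 on recovered reads, the compared groups alone, a replicate block and each library left out.

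The members and lists were chosen with earlier results of these data known. Genes named were 18 canonical members, up to 8 rises and 8 falls per comparison among called members with a mean of at least 20, every member with a called genotype difference, and the untested members. Hspa1l and the genes outside the family were chosen after their values were seen. Positions and exon lengths are from GENCODE (GRCm38), promoters from RefSeq.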

Additional observations from a re-analysis of the deposited data

Results flagged for a closer look

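For 5 members the response to PAMP RNA differed between the genotypes as labelled by the test of the difference itself (limma, KO label minus WT, log2 units, adjusted over all genes). At 6 h these were Dnaja2 (0.43), Hspa5 (0.40), Dnajc15 (0.45) and Dnajc1 (-0.27), and at 3 h Dnajc13 (0.29). The calls of Dnaja2 and Hspa5 held under every alternative and with every library left out in turn. Those of the others did not: Dnajc13 was at an adjusted p of 0.0507 with no filter on low values, Dnajc1 at 0.0503 with edgeR, and Dnajc15 at 0.0517 with no filter. As Dhx58 reads were not lower in the mock libraries labelled KO, these differences follow the labels alone.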

How the results depend on the processing

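Of 318 results of named members, 318 kept their direction and their side of the threshold with a pseudocount of 0.5, 312 with TMM, 311 each with edgeR and DESeq2, 280 with quantile normalization and 276 with equal total reads. Directions turned with quantile normalization for Hsp90b1 (WT at 6 h -0.41, KO label at 6 h -0.53), Hspa8 (-0.16 and -0.15), Hsp90aa1 (KO label at 6 h -0.37), Dnajc3 (KO label -0.23 at 3 h and -0.25 at 6 h, not called as deposited) and, in KO-labelled mock cells from 3 to 6 h, Hsp90ab1 (-0.066) and Hspa8 (-0.11). They turned with equal totals for Hsp90b1 (WT -0.24, KO label -0.35, at 6 h), Hspa13 (-0.17 and -0.26), Hspe1 (KO label -0.24 at 3 h and -0.16 at 6 h), Hsp90aa1 (KO label at 6 h -0.21), Hsph1 (KO label at 6 h -0.34) and Dnajc3 (KO label -0.21 and -0.45). The cause was not tested. The 2 calls in WT at 1 h became 1 with only the groups compared. The single difference between the responses at 3 h became 0 without a filter, with equal totals and with only the groups compared. With quantile normalization that of Dnajc13 was not called, and 1 other member was called lower. The 4 at 6 h (3 higher, 1 lower) became 9 with equal totals (2 higher, 7 lower) and 6 with quantile normalization (3 higher, 3 lower). They became 2 with DESeq2 and with only the groups compared. Leaving out each library gave 1 to 2 calls in WT at 1 h, 0 to 1 differences at 3 h and 2 to 6 at 6 h. With a replicate block 38 members were called in WT at 6 h (26 higher, 12 lower) and 7 lower in the mock genotype difference, where Dnajc15 was lost (-0.15, adjusted p = 0.0545). The labels' numbers did not pair the libraries: 12 of 36 lay closest to their own number, and same-numbered residuals correlated at a median of 0.0017 (-0.114 to 0.183). Depth limited what could be seen in members with few counts: the SE of a WT response at 6 h was 0.28 for Hspb6 and 0.30 for Dnajc17, against 0.05 for Hspa8.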
